A study of Mus musculus with 11 samples.

Results

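The 10 genes described here carry cytarabine into cells, activate or inactivate it, or make the nucleotides it competes with, and were followed across 4 groups of sorted mouse stem cells. They are Slc29a1, Slc29a2, Dck, Cmpk1, Cda, Dctd, Nt5c2, Samhd1, Rrm1 and Rrm2. Their rows were taken from a count table of 53700 genes by matching the Ensembl ID, without its version, to the gene symbol, and all 10 were found. The cells were short-term haematopoietic stem cells (ST-HSC), sorted from bone marrow of C57BL/6j hosts. Every host, the controls included, had received marrow of an acute myeloid leukaemia with the Flt3-ITD mutation and a TET2 KO. The KO treated group (libraries 257, 263 and 276) came from CXCL12 KO hosts, titled Cre_pos, given cytarabine, doxorubicin and quizartinib together. The WT treated group (252, 262 and 266) came from CXCL12 WT hosts, titled Cre_neg, given the same drugs. The KO vehicle group (249 and 275) and the WT vehicle group (240, 253 and 265) came from hosts of the same genotypes given vehicle. The Cre driver, the doses, the time of sampling and the hosts' ages are not given in the sources used here. The labels do not say whether each library is a different animal or whether the sorted cells were leukaemic or host cells, and the p-values cover only the spread among these 11 libraries.

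Cytarabine is a deoxycytidine analogue that enters cells mainly through equilibrative nucleoside transporters. The kinase DCK adds the first phosphate and traps the drug, CMPK1 adds the next, and the triphosphate is built into DNA during replication, where it slows the polymerase. CDA deaminates the free nucleoside to an inactive form, DCTD deaminates the monophosphate, NT5C2 belongs to the nucleotidases that remove phosphate again, and SAMHD1 hydrolyses the triphosphate. Ribonucleotide reductase, a complex of RRM1 and RRM2, makes the deoxynucleotides that compete with the drug and that restrain DCK by feedback.

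With all 11 libraries, no difference in any of the 10 genes between groups passed edgeR's test against the spread of the libraries. Rrm1 was the 1 gene called under another setting (limma voom, 1 library left out, or a covariate), as given with its values. Rrm1 had means of 342 CPM ± 224 among KO treated libraries and 160 CPM ± 38.0 among WT treated libraries (SD, n = 3 each). CPM is a gene's share of its library's counts, per M, after TMM scaling. Cda was counted in 4 of the 5 libraries from KO hosts and in 0 of the 6 from WT hosts. Among the 4, KO treated 263 held only 3 reads (0.0879 CPM). That is below the 0.0928 to 0.369 CPM that a count of 0 allows in a single WT library. In edgeR's quasi-likelihood test with Benjamini-Hochberg adjustment over all 16639 genes tested, 0 of the 10 genes had an adjusted p under 0.05 in the comparisons of KO with WT hosts (treated or vehicle), of treated with vehicle hosts (WT or KO), or in their interaction. The test called 0% of all genes in each of these, so a count of 0 is also the background. DESeq2's Wald test called 0 of the 10 as well, where it called 1.36%, 1.24%, 6.42%, 0.138% and 0.349% of all genes in KO treated against WT treated, KO vehicle against WT vehicle, WT treated against WT vehicle, KO treated against KO vehicle and the interaction. At an unadjusted p under 0.05, edgeR held 10.6% of all genes for KO treated against WT treated, 6.78% for KO vehicle against WT vehicle, 18.2% for WT treated against WT vehicle, 3.68% for KO treated against KO vehicle and 6.31% for the interaction. Of the 9 genes other than Cda, 0 had such a p in any of these. All 10 passed the filter on low counts, Cda only through libraries from KO hosts, so Cda is described by its counts and no p is given for it.

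Libraries held 8.13 to 31.1 M gene counts, with all treated libraries at 22.4 M or above and all vehicle libraries at 22.2 M or below. Depth and treatment cannot be told apart. WT vehicle 253 stood apart from the other 10 libraries. It lay at 325 on the first principal component, against -86.3 to 63.9 elsewhere, and its mean log2 CPM over 14 stem and progenitor markers was 0.30, against 4.22 to 5.88 elsewhere. Levels ran with transcript length to different extents. Across genes, the Spearman correlation of a library's relative level with length was 0.33 and 0.34 in KO treated 263 and 276 and -0.22 in KO treated 257, against -0.39 to -0.30 in the WT treated libraries. It was 0.23 and 0.24 in the KO vehicle libraries and 0.03 to 0.10 in the WT vehicle libraries. Globin genes took 2.84% to 10.5% of gene counts in the KO treated libraries and 1.83% in KO vehicle 275, against 0.0998% or less in the other 7. In bulk RNA of sorted cells, fewer cells of a type and less RNA per cell cannot be told apart. Cxcl12 itself was at 1.2 to 4.63 CPM among KO treated and 0.826 to 1.59 CPM among WT treated libraries. The title places its deletion in the hosts' environment, so these values do not check the labels. Tet2, knocked out in the transplanted leukaemia, was at 2.99 CPM in KO treated 257 and at 10.6 to 28.7 CPM elsewhere. The part of leukaemic cells in these Tet2 levels was not tested.

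The stretches before the transcription starts of Rrm1, Rrm2, Dck and Cda are shown, since these are the reductase pair, the activating kinase and the gene counted in KO hosts alone. Each is the 250 bases before the RefSeq start, read on the gene's strand in build GRCm38.p6, and capitals mark a CCAAT box (CCAAT on either strand) or a GC box (GGGCGG on either strand). Rrm1 lies at chr7:102441445-102441694 on the plus strand, Rrm2 at chr12:24708004-24708253 on the plus strand, Dck at chr5:88764763-88765012 on the plus strand and Cda at chr4:138367956-138368205 on the minus strand.
Rrm1: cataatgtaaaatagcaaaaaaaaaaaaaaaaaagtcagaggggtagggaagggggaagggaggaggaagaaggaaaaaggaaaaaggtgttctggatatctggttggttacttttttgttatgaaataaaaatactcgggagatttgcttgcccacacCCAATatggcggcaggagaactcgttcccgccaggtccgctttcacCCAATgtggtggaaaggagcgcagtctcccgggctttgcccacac
Rrm2: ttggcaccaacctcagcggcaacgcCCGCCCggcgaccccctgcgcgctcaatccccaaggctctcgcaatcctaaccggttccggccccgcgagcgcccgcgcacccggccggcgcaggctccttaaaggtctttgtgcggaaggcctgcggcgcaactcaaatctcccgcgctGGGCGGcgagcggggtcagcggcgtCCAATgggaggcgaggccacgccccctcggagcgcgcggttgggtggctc
Dck: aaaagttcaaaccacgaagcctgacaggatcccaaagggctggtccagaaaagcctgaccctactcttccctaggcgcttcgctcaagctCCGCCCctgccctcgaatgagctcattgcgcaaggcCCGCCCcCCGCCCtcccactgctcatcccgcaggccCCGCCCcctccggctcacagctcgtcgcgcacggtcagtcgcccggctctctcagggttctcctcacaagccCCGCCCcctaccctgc
Cda: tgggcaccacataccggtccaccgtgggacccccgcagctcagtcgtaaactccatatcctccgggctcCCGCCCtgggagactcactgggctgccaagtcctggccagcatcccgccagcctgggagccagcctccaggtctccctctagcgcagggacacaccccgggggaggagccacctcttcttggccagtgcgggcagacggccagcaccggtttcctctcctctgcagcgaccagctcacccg
Rrm1 had 2 CCAAT boxes, beginning 91 and 45 bases before the start, and 0 GC boxes. Rrm2 had 1 CCAAT box, 50 bases before the start, with GC boxes at 225 and 75 bases. Dck had 5 GC boxes, at 160, 124, 117, 88 and 16 bases, and 0 CCAAT boxes, and Cda had 1 GC box at 181 bases. Of all 32851 promoters in the table, 33.8% held the CCAAT letters and 32.7% the GC box letters in the same window. The letters TTTGGCGC or TTTCCCGC, searched on both strands as an E2F motif, were in 1.30% of promoters and in none of these 4. These matches describe letters in a window, not bound sites.

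Slc29a1 encodes the equilibrative transporter ENT1, the main route of cytarabine into blood cells. It was the steadiest of the 10 genes. Slc29a1 was at 61.2, 61.7 and 70.2 CPM in the KO treated libraries, against 46.8, 70.6 and 58.6 CPM in the WT treated libraries. It was at 66.6 and 50.2 CPM in the KO vehicle libraries, against 63.3, 44.9 and 48.4 CPM in the WT vehicle libraries. All 4 groups overlapped. The log2 fold change of KO treated over WT treated was 0.13 ± 0.29 (SE), with a 95% interval of -0.50 to 0.76 and an edgeR adjusted p of 0.925. It was -0.04 with upper-quartile scaling and -0.0058 without WT treated 252, so its sign is not fixed. In an earlier annotation, 275 of the gene's 2656 exon bases are shared with the antisense gene Gm17080, whose reads cannot be told apart here.

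Slc29a2 encodes the related transporter ENT2 and was counted far less, with 38 to 330 reads per library. Slc29a2 was at 8.50, 4.33 and 4.41 CPM in the KO treated libraries, against 3.37, 3.26 and 3.72 CPM in the WT treated libraries. Every KO treated library lay above every WT treated one. Slc29a2 was the 1 gene of the 10 with this, and 0 had every KO treated library below, where 9.71% of all genes tested were fully above and 9.56% fully below. The log2 fold change was 0.74 ± 0.80 (SE), with a 95% interval of -1.01 to 2.48 and an edgeR adjusted p of 0.816. In vehicle hosts it was at 2.24 and 4.87 CPM in the KO libraries, against 4.85, 19.2 and 4.68 CPM in the WT libraries. The highest value of all was WT vehicle 253, the library that stands apart. KO vehicle over WT vehicle gave -1.43 ± 0.93 (SE; adjusted p = 0.806, edgeR), and -0.42 without that library.
The 3 WT treated values were all below the 3 WT vehicle values, with a log2 fold change of -1.48 ± 0.81 (SE; edgeR adjusted p = 0.351). It was -0.47 without WT vehicle 253, and over the 22 settings that gave a value it ran from -1.85 to -0.37. The difference between the treatment effects in KO and WT hosts was 2.17 ± 1.22 on the log2 scale (SE; 95% interval -0.50 to 4.84; edgeR adjusted p = 0.773).

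**Figure D1:**
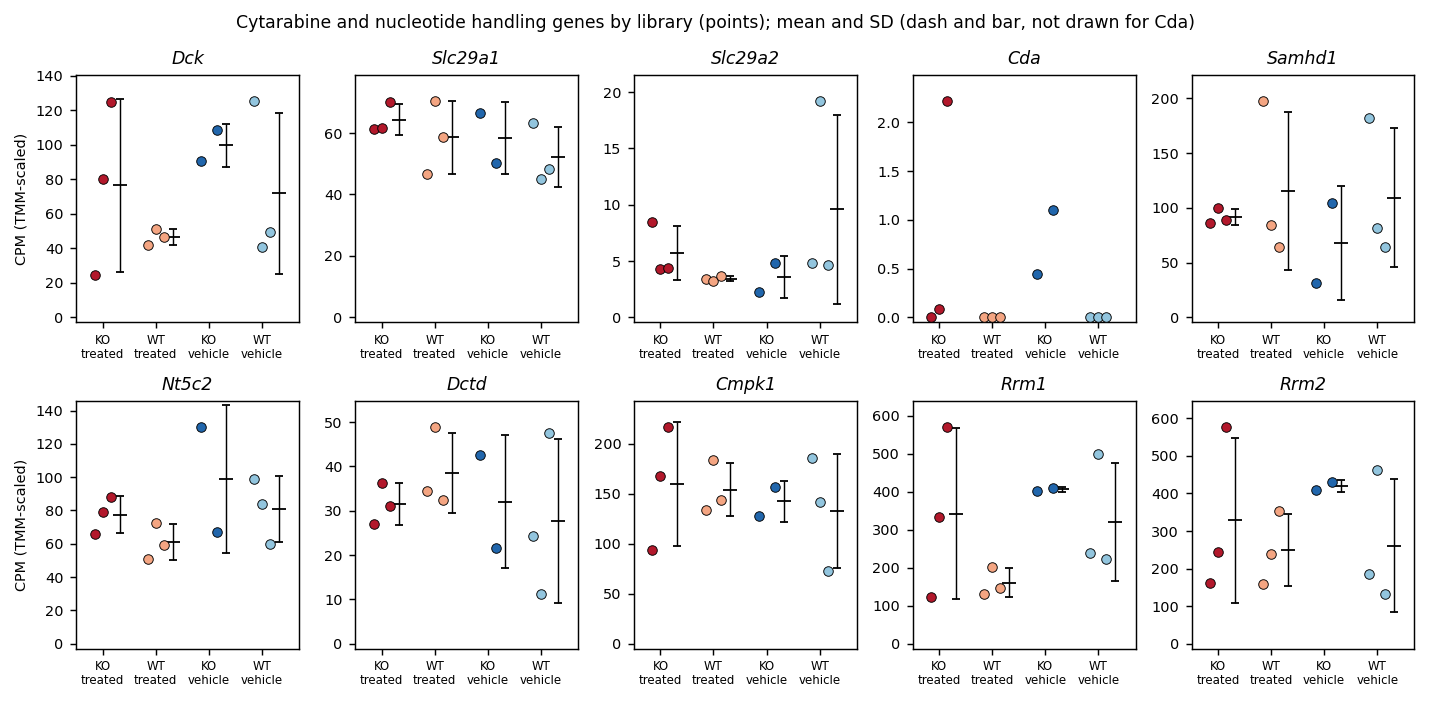
Levels of the 10 genes in each library, in CPM after TMM scaling (vertical axis, linear, a scale of its own for each gene). Points are libraries of the KO treated, WT treated, KO vehicle and WT vehicle groups, and the dash and bar beside them give the mean and SD, which are not drawn for Cda. KO treated libraries of Rrm1 spread from 122 to 570 CPM, and those of WT treated from 131 to 203 CPM.

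Dck encodes the deoxycytidine kinase that starts cytarabine activation. Dck was at 24.7, 80.1 and 125 CPM in the KO treated libraries, against 42.1, 51.5 and 46.9 CPM in the WT treated libraries. The KO treated group held both the lowest and the highest of these 6 values, with 257 below and 263 and 276 above every WT treated library. The log2 fold change was 0.71, with a 95% interval of -0.48 to 1.90 and an edgeR adjusted p of 0.707. It was positive in all 23 alternative settings, from 0.09 to 1.13, with 0 calls. In vehicle hosts Dck was at 90.8 and 109 CPM in the KO libraries, against 126, 41.1 and 49.3 CPM in the WT libraries. The WT vehicle group held both extremes here, and KO over WT was 0.47 ± 0.60 (SE; edgeR adjusted p = 0.946).
WT treated over WT vehicle was -0.62 (edgeR adjusted p = 0.574) and turned to 0.05 without WT vehicle 240. KO treated over KO vehicle was -0.38 ± 0.60 (SE; edgeR adjusted p = 1) and turned to 0.04 without KO treated 257. In KO treated 257, 30.4% of reads lay outside genes, the highest share of the 11 libraries. WT vehicle 240 and 265 had shares of 28.7% and 28.8%, with Dck at 126 and 49.3 CPM. This share was also a covariate in an alternative fit, and its part in the low Dck value of 257 was not tested beyond that fit.

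Cmpk1 encodes the kinase that adds the next phosphate to cytidine and deoxycytidine monophosphates. Cmpk1 was at 93.6, 167 and 217 CPM in the KO treated libraries, against 133, 184 and 144 CPM in the WT treated libraries. In vehicle hosts it was at 128 and 157 CPM in the KO libraries, against 185, 142 and 72.3 CPM in the WT libraries. The groups overlapped in every comparison. KO treated over WT treated was 0.05 ± 0.39 (SE; 95% interval -0.80 to 0.91; edgeR adjusted p = 0.984). This sign turned with upper-quartile scaling (-0.17), with the length trend removed (-0.44) and without WT treated 252 (-0.04) or KO treated 276 (-0.29). The processed pseudogene Gm5867 matches the Cmpk1 transcript at 96.5% over 592 bases, so its counts are uncertain by the reads shared with that copy.

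Cda encodes cytidine deaminase, which inactivates cytarabine before it is phosphorylated. Cda had 0, 3 and 60 reads in KO treated libraries 257, 263 and 276, against 0 reads in each of the 3 WT treated libraries. It had 10 and 27 reads in KO vehicle libraries 249 and 275, against 0 reads in each of the 3 WT vehicle libraries. A count of 0 allows up to 0.0928 to 0.369 CPM in a single WT library (3 reads, counting error only). Pooled over the group, KO treated libraries held 0.760 CPM, at least 19.3-fold higher than the 0.0393 CPM that 3 reads over the WT treated group allow. That bound rested on KO treated 276. Without it the group held 3 reads and no fold is given, and without 257 or 263 the bound was 26.2-fold or 31.3-fold. In vehicle hosts the KO libraries held 0.791 CPM, at least 10.7-fold higher than the 0.0736 CPM allowed over the WT group, and the bound was 15.01-fold without KO vehicle 249 and 6.08-fold without KO vehicle 275.
Both KO vehicle libraries lay above all WT vehicle libraries for Cda alone of the 10, where this held for 13.2% of all genes tested, and 0 of the 10 lay fully below, against 7.47% of all genes. As Cda passed the filter through these libraries, its position is a description only.

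By summed level, red-cell markers were also high in 4 of the 5 libraries from KO hosts. The summed level of 17 erythroid markers was 21984 to 106585 CPM in KO treated, against 590 to 784 CPM in WT treated libraries, and 827 to 17458 CPM in KO vehicle, against 175 to 1246 CPM in WT vehicle libraries. All 17 were detected in each of the 5 libraries from KO hosts, and 1 of the 17 was at 0 in WT treated 266 and in WT vehicle 253. KO treated 276, with 60 Cda reads, had the highest erythroid sum, while KO treated 257 had 0 Cda reads with the next highest (43390 CPM) and KO vehicle 249 had 10 with 827 CPM. The place of KO vehicle 249 depends on the measure. Its mean log2 CPM over the 17 markers was 4.14, above the -0.02 to 3.02 of the WT vehicle and 2.34 to 2.69 of the WT treated libraries. The summed level of 12 megakaryocyte markers was 689 CPM in KO vehicle 275, against 5.83 to 92.5 CPM in the other 10 libraries. Granulocyte markers, 18 in number, summed to 11407 to 35821 CPM in KO treated libraries. The sums were 32025, 44706 and 167451 CPM in WT treated 252, 262 and 266, so the treated groups overlapped. In vehicle hosts they were 40668 and 64914 CPM in KO, against 39921 to 104578 CPM in WT libraries. The part of these cells in the Cda counts was not tested.

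**Figure D2:**
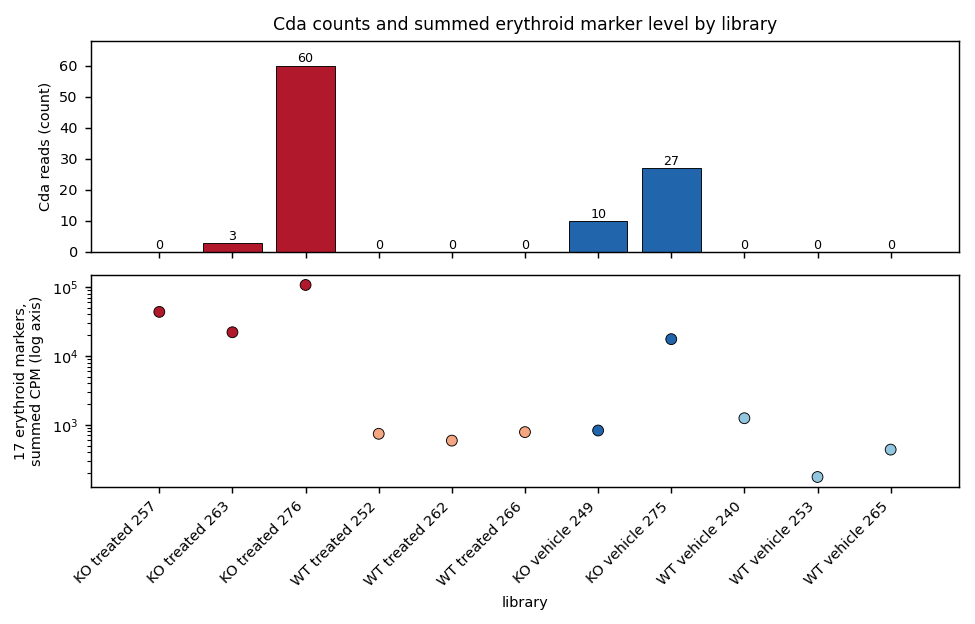
Cda reads in each library (upper panel, counts) and the summed level of 17 erythroid markers in the same libraries (lower panel, CPM, log axis). The 6 libraries from WT hosts hold 0 Cda reads and erythroid sums of 1246 CPM or less, and KO treated 257 holds 0 Cda reads at 43390 CPM.

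Dctd encodes deoxycytidylate deaminase, which acts on cytarabine monophosphate. Dctd was at 27.0, 36.3 and 31.2 CPM in the KO treated libraries, against 34.4, 48.9 and 32.3 CPM in the WT treated libraries. In vehicle hosts it was at 42.6 and 21.5 CPM in the KO libraries, against 24.3, 11.2 and 47.5 CPM in the WT libraries. The groups overlapped throughout, and the widest spread was among the WT vehicle libraries. KO treated over WT treated was -0.29 ± 0.49 (SE; 95% interval -1.37 to 0.79; edgeR adjusted p = 0.901), and 0.15 with the length trend removed.

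Nt5c2 encodes a cytosolic nucleotidase that acts on purine and some pyrimidine monophosphates. Nt5c2 was at 65.9, 78.9 and 87.9 CPM in the KO treated libraries, against 51.0, 72.4 and 59.3 CPM in the WT treated libraries. In vehicle hosts it was at 130 and 67.2 CPM in the KO libraries, against 98.9, 83.9 and 60.0 CPM in the WT libraries. KO treated over WT treated was 0.35 ± 0.33 (SE; 95% interval -0.36 to 1.06; edgeR adjusted p = 0.781), and -0.17 with the length trend removed. WT treated over WT vehicle was -0.41 ± 0.33 (SE; edgeR adjusted p = 0.526) and stayed negative in all 23 alternative settings, from -0.58 to -0.17. The groups overlapped in both comparisons. Of its 8179 exon bases, 456 are shared with Ina and 123 with AC122442.1 on the other strand.

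Samhd1 encodes the phosphohydrolase that breaks down deoxynucleoside triphosphates, the active form of cytarabine among them. Samhd1 was at 86.3, 99.6 and 89.1 CPM in the KO treated libraries, against 198, 84.6 and 63.8 CPM in the WT treated libraries. The KO treated libraries lay close together and inside the WT treated range. The log2 fold change was -0.33 ± 0.55 (SE; 95% interval -1.53 to 0.86; edgeR adjusted p = 0.898) and 0.30 without WT treated 252. In vehicle hosts Samhd1 was at 31.3 and 104 CPM in the KO libraries, against 182, 81.4 and 64.2 CPM in the WT libraries. KO over WT was -0.69 ± 0.62 (SE; 95% interval -2.05 to 0.68; edgeR adjusted p = 0.896). Short stretches of Samhd1 transcripts match transcripts of many other genes, the longest at 95.7% over 209 bases (Eapp).
The balance of Dck to Samhd1, as a log2 ratio of CPM, was -1.80, -0.31 and 0.49 in KO treated, against -2.23, -0.71 and -0.44 in WT treated libraries. It was 1.53 and 0.06 in KO vehicle, against -0.53, -0.99 and -0.38 in WT vehicle libraries. The treated groups overlapped, both KO vehicle ratios lay above all WT vehicle ratios, and no test was run on this ratio. Among single genes, 13.2% of all tested lay fully above in KO vehicle against WT vehicle, and no such share was computed for ratios.

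Rrm1 encodes the large, catalytic subunit of ribonucleotide reductase. Rrm1 was at 122, 333 and 570 CPM in KO treated libraries 257, 263 and 276, against 131, 203 and 146 CPM in WT treated libraries 252, 262 and 266. Libraries 263 and 276 lay above every WT treated library and 257 below, so the groups overlapped. The log2 fold change was 1.10 ± 0.50 (SE), with a 95% interval of -0.0040 to 2.19, an unadjusted p of 0.0507 and an adjusted p of 0.471 in edgeR's test. It was positive in all 23 alternative settings, from 0.34 to 1.495. It passed the threshold in 2 of them, without KO treated 257 (1.495; adjusted p = 0.0396, edgeR), where 9.26% of all genes tested were called, and with limma voom and quality weights (1.03; adjusted p = 0.0172), where 26.3% were called. Across the 23 settings its adjusted p ran from 0.0172 to 1. It was 0.44 without KO treated 276 and 0.34 with each library's length trend removed, and 0.63 with that trend removed and 257 left out. The Rrm1 transcript is 3997 bases long, and KO treated 263 and 276 had the highest correlations of level with length. The part of length in the Rrm1 difference was not tested beyond these values.
In vehicle hosts Rrm1 was at 402 and 410 CPM in the KO libraries, against 239, 500 and 224 CPM in the WT libraries. The WT values lay on both sides of the KO pair, with 253 the highest. KO over WT was 0.34 ± 0.55 (SE; edgeR adjusted p = 0.973), where the median of all genes was 0. With the length trend removed it was -0.27, where the median of all genes was -0.34.

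**Figure D3:**
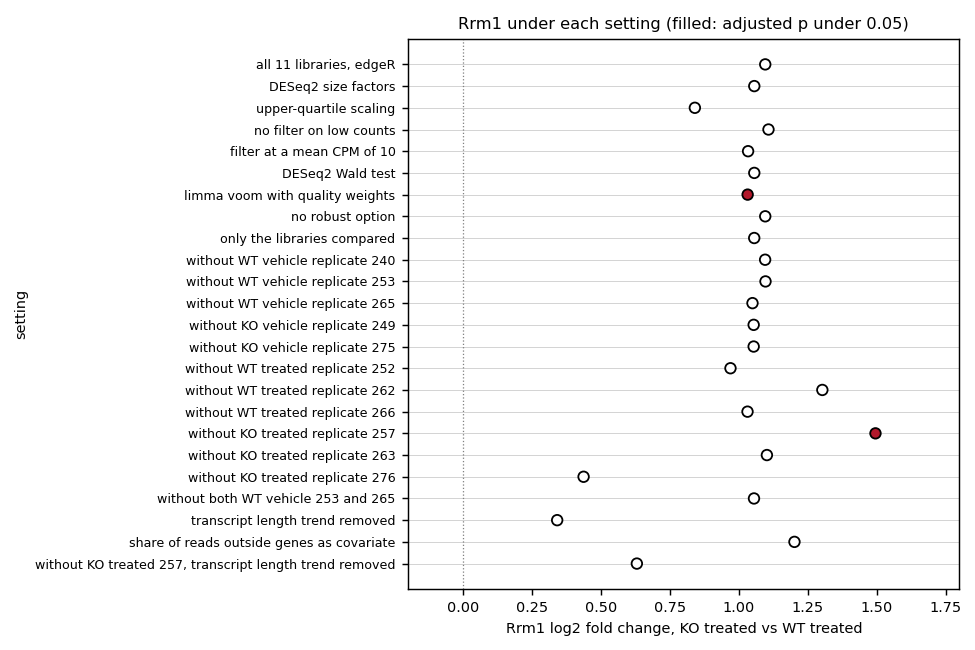
Log2 fold change of Rrm1 in KO treated over WT treated libraries (horizontal axis) in the edgeR test of all 11 libraries and in 23 alternative settings (rows). Filled points have an adjusted p under 0.05. All values are above 0, from 0.34 with the length trend removed to 1.495 without KO treated 257.

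In WT hosts, every treated library had a lower Rrm1 level than every vehicle library. The WT treated values of 131, 203 and 146 CPM were all below the WT vehicle values of 239, 500 and 224 CPM. Rrm1 and Slc29a2 were the 2 genes of the 10 with all WT treated libraries below, in a comparison where this held for 10.1% of all genes tested, and 0 of the 10 had all above, against 17.5% of all genes. The Rrm1 log2 fold change was -1.01 ± 0.50 (SE; 95% interval -2.10 to 0.09), with an unadjusted p of 0.0690 and an adjusted p of 0.307 in edgeR's test. It was negative in all 23 alternative settings, from -2.0 to -0.46, with adjusted p from 0.00936 to 0.791. It passed the threshold with the outside-gene read share in the model (-2.0; edgeR adjusted p = 0.00936), where 12.6% of all genes tested were called. That share was 6.33% to 16.6% in WT treated and 18.0% to 28.8% in WT vehicle libraries. Since these do not overlap, the share and the treatment cannot be told apart in this setting. Without WT vehicle 253 the Rrm1 log2 fold change was -0.54, and without 253 and 265 together -0.46. With the length trend removed it was -0.97, where the median of all genes was -0.30.
In KO hosts the treated values of 122, 333 and 570 CPM spanned the vehicle values of 402 and 410 CPM. All 10 genes overlapped between KO treated and KO vehicle libraries, where 12.3% of all genes tested lay fully above and 10.1% fully below. KO treated over KO vehicle was -0.25 ± 0.55 (SE; edgeR adjusted p = 1), and 0.15 without KO treated 257. The treatment effect in KO hosts minus that in WT hosts was 0.76 ± 0.75 (SE; 95% interval -0.88 to 2.4; edgeR adjusted p = 0.866).

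Rrm2 encodes the small reductase subunit, which is made in S phase and carries the radical needed for catalysis. Rrm2 was at 162, 245 and 577 CPM in the KO treated libraries, against 160, 238 and 352 CPM in the WT treated libraries. The groups overlapped, and KO treated 276 alone lay above the WT range. The log2 fold change was 0.39 ± 0.55 (SE; 95% interval -0.80 to 1.59; edgeR adjusted p = 0.872) and -0.35 without KO treated 276. In vehicle hosts Rrm2 was at 408 and 430 CPM in the KO libraries, against 187, 463 and 133 CPM in the WT libraries. KO over WT was 0.68 ± 0.60 (SE; 95% interval -0.64 to 2.0; edgeR adjusted p = 0.891) and positive in all 23 alternative settings, from 0.18 to 1.39. The pair of KO values lay inside the WT range, whose upper end was 253.
WT treated over WT vehicle was -0.06 ± 0.55 (SE; edgeR adjusted p = 0.966), and 0.64 without WT vehicle 253. KO treated over KO vehicle was -0.35 ± 0.61 (SE; edgeR adjusted p = 1). Processed pseudogenes Gm48455 (95.5% over 419 bases) and Gm48445 (98.4% over 193 bases) match the Rrm2 transcript.

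The reductase subunits did not keep a fixed ratio. The log2 ratio of Rrm2 to Rrm1 CPM was 0.41, -0.44 and 0.02 in KO treated, against 0.28, 0.23 and 1.27 in WT treated libraries. It was 0.02 and 0.07 in KO vehicle, against -0.36, -0.11 and -0.75 in WT vehicle libraries. The ratio was above 0 in all 3 WT treated libraries and below 0 in all 3 WT vehicle libraries, and no test was run on it. Among single genes, 17.5% of all tested lay fully above in WT treated against WT vehicle, and no such share was computed for ratios. The transcripts differ in length (2193 bases for Rrm2 and 3997 for Rrm1), and the part of the libraries' length trends in this ratio was not tested. The alternative small subunit gene Rrm2b, a p53 target that is no member of the 10, was at 1.93, 7.97 and 10.3 CPM in KO treated, against 5.17, 3.34 and 6.09 CPM in WT treated libraries. It was at 9.35 and 5.48 CPM in KO vehicle, against 8.53, 0 and 1.72 CPM in WT vehicle libraries.

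**Figure D4:**
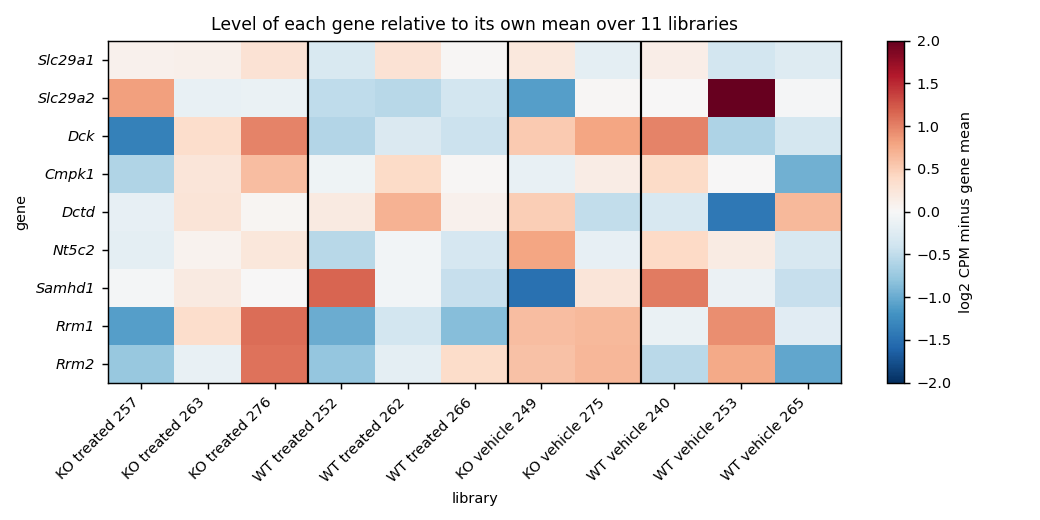
Levels of 9 of the genes (rows, Cda left out) in the 11 libraries (columns), as log2 CPM minus the gene's own mean over the libraries (colour, red above and blue below, with the scale ending at 2 either way). Black lines part the KO treated, WT treated, KO vehicle and WT vehicle groups. Rrm1 and Rrm2 share the red of KO treated 276 and the blue of KO treated 257, and Slc29a2 in WT vehicle 253 is the darkest red.

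Per kilobase of transcript, Rrm2 had the highest mean and Cda the lowest in both treated groups. In KO treated libraries, Rrm2 averaged 150 CPM per kb ± 100.2, Rrm1 85.5 ± 56.2 and Cmpk1 50.2 ± 19.5 (SD, n = 3), which did not differ beyond their SDs. Slc29a1 at 32.3 ± 2.53, Samhd1 at 28.3 ± 2.17, Dck at 24.9 ± 16.3, Nt5c2 at 22.4 ± 3.19 and Dctd at 21.9 ± 3.27 CPM per kb followed, and these neighbours in the order did not differ beyond their SDs. Slc29a2 at 2.39 ± 0.994 and Cda at 0.910 ± 1.49 CPM per kb came last. In WT treated libraries Rrm2 was again highest, at 114 CPM per kb ± 44.2, followed by Cmpk1 at 48.5 ± 8.35 and Rrm1 at 40.0 ± 9.51, which did not differ beyond their SDs. Dck averaged 15.2 CPM per kb ± 1.52 there. Lengths are medians of annotated transcripts, and the length trends above enter these levels.

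Over the 11 libraries, the closest pair among the 10 was Slc29a1 with Nt5c2, whose centred log2 CPM differed by a root mean square of 0.31, and Rrm1 with Rrm2 differed by 0.50. Among other genes, those with the pattern most like Rrm1 were Gart (0.15), which acts in purine synthesis, Vps35 (0.16) and Tm9sf3 (0.18). Those most like Rrm2 were Ccna2 (0.25), a cyclin of S phase and mitotic entry, Plk1 (0.25), a mitotic kinase, and Anapc4 (0.29). Those most like Dck were Copb1 (0.22), Prpf18 (0.26) and Slc30a5 (0.27). For Cda the nearest was Tfrc, the transferrin receptor, at 1.33, a wide distance, followed by Cep76 (1.34) and Chdh (1.40). For the other members the nearest genes were Carnmt1 for Slc29a1 (0.14), Nfkb2 for Slc29a2 (0.42), Slc46a3 for Samhd1 (0.36), Ddx1 for Nt5c2 (0.17), Akr1e1 for Dctd (0.29) and Snapc1 for Cmpk1 (0.18). These distances share the libraries' depth and length trends and carry no test.

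**Figure D5:**
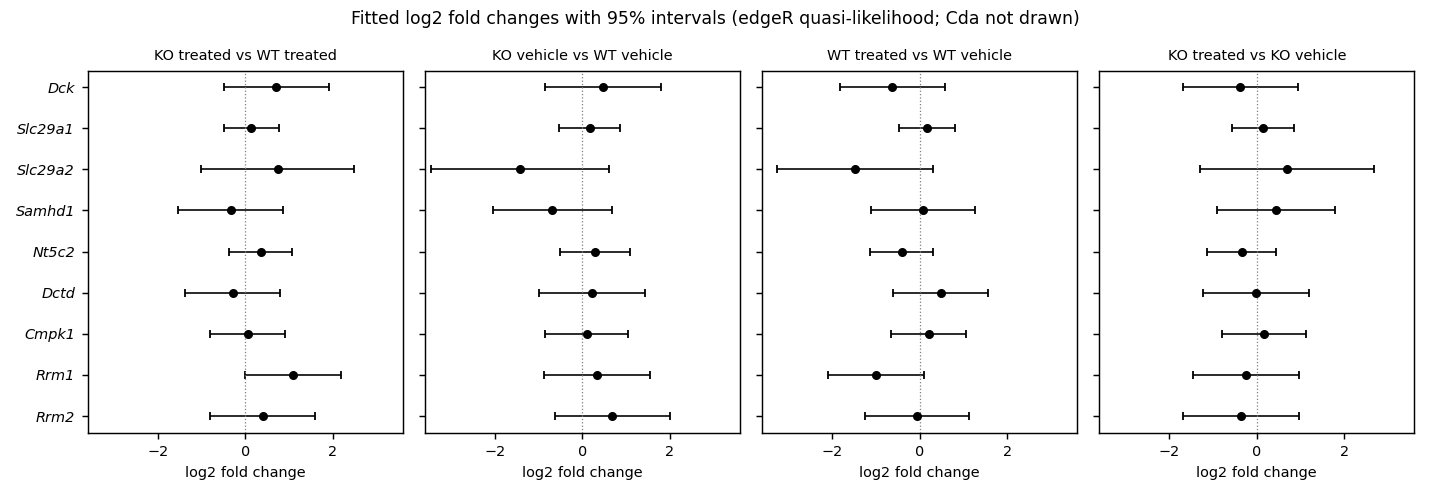
Log2 fold changes (horizontal axis) of 9 of the genes (rows) from edgeR's quasi-likelihood fit of all 11 libraries, with 95% intervals as bars, in 4 comparisons (panels). Cda is not drawn because its WT groups are at 0. Every interval drawn includes 0, and the Rrm1 interval for KO treated over WT treated ends closest to it, at -0.0040.

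Among the other genes of nucleotide handling, 0 passed edgeR's adjusted threshold in each list and comparison that follows. The test called 0% of all genes in each comparison, so this count is the background and says nothing particular of these lists. In KO treated against WT treated, 8 of the 10 genes had a log2 fold change above 0, and the median of the 10 was 0.37, where the median of all genes tested was 0.10. Once the length trend was removed, 7 of 10 were positive, with a median of 0.20, where that of all genes was 0.02. In KO vehicle against WT vehicle, 8 of 10 were positive, with a median of 0.25, where that of all genes was 0. Removing the length trend left 3 of 10 positive, with a median of -0.19, where that of all genes was -0.34. Cda is among the positive genes in both comparisons and is there through the filter, so these counts are descriptions. The median was -0.06 in WT treated against WT vehicle over the 9 genes other than Cda and -0.02 in KO treated against KO vehicle over all 10, where that of all genes was 0.09 and 0.12. In KO treated against KO vehicle 4 of 10 were positive, and without KO treated 257 8 of 10 were, with a median of 0.16, where that of all genes was 0.06. Removing the length trend moved the all-gene median of WT treated against WT vehicle to -0.30, and upper-quartile scaling moved it to 0.32.
Of 16 other nucleoside and nucleotide kinases tested, 13 were lower in KO treated than in WT treated libraries, with a median of -0.47, and -0.14 with the length trend removed. Dguok, the mitochondrial kinase of deoxyguanosine that also phosphorylates some analogues, had means of 50.04 CPM ± 26.5 among KO treated and 106 CPM ± 13.1 among WT treated libraries (SD, n = 3 each; log2 fold change -1.09; edgeR adjusted p = 0.434). In WT treated against WT vehicle, 12 of the 16 were positive, with a median of 0.58. With the length trend removed 7 were positive, with a median of -0.19, against -0.30 over all genes. Tk1, the S phase thymidine kinase, averaged 182 CPM ± 30.9 in WT treated and 92 CPM ± 24.6 in WT vehicle libraries (log2 fold change 0.99; edgeR adjusted p = 0.196).

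Nucleotidases and phosphohydrolases other than the members followed. Of 12 tested, 8 were negative in KO treated against WT treated, with a median of -0.64, and 10 were positive in WT treated against WT vehicle, with a median of 0.80. With the length trend removed 4 of these 12 were positive in WT treated against WT vehicle, with a median of -0.21 (-0.30 over all genes). The median for KO treated against WT treated was then -0.32 (0.02 over all genes). Dut, which removes dUTP, averaged 333 CPM ± 18.7 in WT treated and 99.0 CPM ± 11.2 in WT vehicle libraries (SD, n = 3 each), with groups that did not overlap and an edgeR adjusted p of 0.172 (log2 fold change 1.75 ± 0.40, SE). Of all genes tested, 17.5% lay fully above in this comparison, and Dut was named for a small p in its list. Nt5m, a mitochondrial nucleotidase, averaged 19.0 CPM ± 4.99 among KO treated and 41.8 CPM ± 8.64 among WT treated libraries (log2 fold change -1.14; edgeR adjusted p = 0.412). Of 12 genes of pyrimidine and thymidylate synthesis, 8 were positive in KO treated against WT treated (median 0.35) and 9 negative in WT treated against WT vehicle (median -0.30). Tyms, which makes thymidylate, went against that majority, at 223 CPM ± 36.7 in WT treated and 75.5 CPM ± 14.2 in WT vehicle libraries (log2 fold change 1.56; edgeR adjusted p = 0.172). With the length trend removed these medians were 0.13 and -0.41, where those of all genes were 0.02 and -0.30.

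Of 6 other nucleoside carriers and drug exporters tested, 5 were positive in KO treated against WT treated (median 0.65) and 5 negative in WT treated against WT vehicle (median -1.18). The medians were -0.08 and -1.01 with the length trend removed, so the sign in KO treated against WT treated turned. Those of all genes were then 0.02 and -0.30. Abcg2, an efflux pump, averaged 79.2 CPM ± 66.6 among KO treated and 21.1 CPM ± 5.02 among WT treated libraries (SD, n = 3 each; log2 fold change 1.91 ± 0.57, SE; edgeR adjusted p = 0.385), with groups that did not overlap. Of all genes tested, 9.71% lay fully above in this comparison, and Abcg2 was named for a small p in its list. Slc28a2, a concentrating nucleoside carrier, averaged 33.0 CPM ± 12.5 in WT treated and 107 CPM ± 50.5 in WT vehicle libraries (log2 fold change -1.70; edgeR adjusted p = 0.190). Of the 10 other deaminases and phosphorylases, 6 were positive in KO treated against WT treated (median 0.42), and 7 negative in WT treated against WT vehicle (median -0.27). Ampd2, the AMP deaminase, averaged 25.2 CPM ± 5.32 in WT treated and 94.8 CPM ± 46.0 in WT vehicle libraries (log2 fold change -1.91; edgeR adjusted p = 0.177).

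Replication genes, which mark cells that use the nucleotides, were taken beside the members. Of 31 S phase genes, 21 were positive in KO treated against WT treated (median 0.57) and 20 negative in WT treated against WT vehicle (median -0.49). With the length trend removed the medians were 0.37 and -0.62, where those of all genes were 0.02 and -0.30. Chaf1a, a chromatin assembly factor of the fork, averaged 50.4 CPM ± 16.7 among KO treated and 18.0 CPM ± 6.84 among WT treated libraries (SD, n = 3 each), and 59.9 CPM ± 18.5 in WT vehicle libraries. Its log2 fold change was 1.49 for KO treated over WT treated (edgeR adjusted p = 0.383) and -1.74 for WT treated over WT vehicle (edgeR adjusted p = 0.172). The polymerase gene Pold1 averaged 144 CPM ± 61.9 among KO treated and 57.3 CPM ± 5.70 among WT treated libraries (log2 fold change 1.33; edgeR adjusted p = 0.383), and 154 CPM ± 30.4 in WT vehicle libraries. Pole4, a small accessory subunit, averaged 117 CPM ± 56.9 among KO treated and 217 CPM ± 21.4 among WT treated libraries (log2 fold change -0.89; edgeR adjusted p = 0.434). The 14 polymerase genes split evenly, 7 positive and 7 negative, both in KO treated against WT treated and in WT treated against WT vehicle. Of 22 G2/M genes, 15 were positive in KO treated against WT treated (median 0.24), and 11 of them with upper-quartile scaling.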

How the data were processed

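For 11 libraries the authors deposited a table of raw, whole-number read counts, with 1 row for each Ensembl gene. Per the labels' protocols, RNA (RNeasy Plus Micro) went through SMARTer Ultra Low Input amplification and Nextera XT library preparation, which do not keep the strand. The submitters' processing notes name build GRCm39, the aligner STAR 2.7.9a, the counter HTSeq (with 0.6.7 listed), Trim Galore 0.6.7, bcl2fastq and DESeq2, and the annotation release is not given in the sources used here. The 5 summary lines were left out of library sizes. Reads outside genes were 5.98% to 30.4% of all reads, ambiguous reads 2.34% to 6.31% and reads at several places 11.6% to 30.0%.

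IDs were matched to symbols with a GENCODE annotation of an earlier build (52093 of 53700 genes), which also gave lengths (99.7% of genes tested). Genes kept by filterByExpr (16639) were tested in 1 fit of all 4 groups with edgeR 4.0.16 in R 4.3.3 (TMM, robust quasi-likelihood). The biological coefficient of variation was 0.783. The call threshold was an adjusted p of 0.05. SE is the size of the fitted log2 change over the root of its F value, and 95% intervals use the t distribution with the test's degrees of freedom. CPM uses TMM-scaled sizes. Log2 CPM uses a prior count of 0.5. Groups at 0 were given a floor of 3 counts over the group, which covers counting error only, since the reads carry no molecular identifiers. Alternatives were other scalings, filters and tools (DESeq2 1.42.0, limma 3.58.1 voom), each library left out, the outside-gene read share as a covariate, and the trend with transcript length removed (lowess, span 0.3). Leaving out KO treated 257 together with that trend was chosen after seeing the data. The code was tested on simulated data.

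Besides the 10 members, genes are named from 19 lists by a rule: up to 3 genes of each list with the smallest p in each comparison of 2 groups, Cxcl12, Mki67, Tet2, Flt3 and Rrm2b always, and for each member the 3 tested genes of most like pattern (mean log2 CPM of at least 3). The text gives a part of these. The members, lists and rules were chosen with earlier results of these data known.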

Additional observations from a re-analysis of the deposited data

How the results depend on the processing

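No paired analysis was possible because the library numbers differ between the groups. The number of genes called by edgeR was 0 in every comparison, with 1769 (KO treated against WT treated), 1128 (KO vehicle against WT vehicle), 3035 (WT treated against WT vehicle), 612 (KO treated against KO vehicle) and 1050 (interaction) genes at an unadjusted p under 0.05. It moved with the setting, and the cause was not tested. In the same order, the DESeq2 Wald test called 226, 206, 1069, 23 and 58 genes. Without the filter on low counts edgeR called 43, 11 and 215 genes in the first 3. limma voom with quality weights called 4375 genes in the first, and the covariate 2100 in the third. Leaving out 1 library each gave 0 to 1513, 0 to 85 and 0 to 1012 genes in the first 3, highest without KO treated 257, WT vehicle 240 and KO treated 257, and 0 to 1 in the interaction. Without WT vehicle 240, 190 genes were called in the third.

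Of the 10 members, 1 (Rrm1) was called with voom and without KO treated 257 in the first comparison (0 to 1 over the libraries left out). In the third, 1 (Rrm1) was called with the covariate, whose values do not overlap between the groups compared. Of the fold changes given in the text, these uncalled values changed sign. In KO treated over WT treated, upper-quartile scaling gave -0.037 for Slc29a1 and -0.17 for Cmpk1. Removing the length trend gave -0.17 for Nt5c2, 0.15 for Dctd and -0.44 for Cmpk1, and with 257 left out too -0.30, 0.36 and -0.32. Over the libraries left out, Slc29a1 ran from -0.0058 to 0.29, Samhd1 from -0.62 to 0.30, Cmpk1 from -0.29 to 0.32 and Rrm2 from -0.35 to 0.72. In KO vehicle over WT vehicle, Dck was -0.22 without 253 and 265 and -0.20 with the covariate. Rrm1 was -0.27 with the length trend removed, where the median of all genes was -0.34. It was -0.26 with 257 left out too and -0.38 with the covariate. In WT treated over WT vehicle, Rrm2 was 0.22 with upper-quartile scaling, 0.28 with voom and 0.55 without 253 and 265. Over the libraries left out, it ran from -0.39 to 0.64 and Dck from -0.90 to 0.052. In KO treated over KO vehicle, Dck ran from -0.99 to 0.039 and Rrm1 from -0.90 to 0.15.

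With 2 or 3 libraries a group, the 95% intervals were wide also for well-counted members (Slc29a1 -0.50 to 0.76, Rrm2 -0.80 to 1.59 in KO treated over WT treated), so differences within them were not detectable. Slc29a2 and Cda rest on few reads. With 1 KO vehicle library left out, or with WT vehicle 240 kept alone, the fit takes the remaining library to be as variable as the other groups.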

Other observations

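Genes of p53 and CDK inhibition were read beside the members since cytarabine stalls replication. Where edgeR's test called 0% of all genes, it also called 0 of the 14 tested here. Of these, 10 were positive in KO treated over WT treated libraries (median log2 fold change 0.25) and 9 in WT treated over WT vehicle libraries (median 0.62, and 0.28 with the length trend removed). Phlda3, a p53 target that restrains AKT, averaged 2.01 CPM ± 1.36 among KO treated and 1.92 CPM ± 0.920 among WT treated libraries (SD, n = 3 each; log2 fold change 0.07; edgeR adjusted p = 0.992). It averaged 2.90 CPM ± 2.96 in KO vehicle libraries (n = 2), against 0.0215 CPM ± 0.0373 in WT vehicle libraries (n = 3), which is 1 read in WT vehicle 240 and 0 in the other 2, so no fold is given. Trp53inp1, a p53-induced protein, averaged 18.4 CPM ± 11.1 among KO treated and 6.57 CPM ± 0.593 among WT treated libraries (SD, n = 3 each), and 23.4 CPM ± 6.89 in WT vehicle libraries. Its log2 fold change was 1.48 for KO treated over WT treated (edgeR adjusted p = 0.434) and -1.83 for WT treated over WT vehicle (edgeR adjusted p = 0.182).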
